A study of Homo sapiens with 7 samples.

Results

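miR-21 is a microRNA made from a single hairpin, whose 5′ arm gives miR-21-5p (listed as hsa-miR-21-5p), the main product, and whose 3′ arm gives miR-21-3p. Both arms were selected by name and both were listed, 2 of the 480 mature microRNA names measured. They were followed through 7 pulldown libraries of A375, a human melanoma cell line that carries an activating mutation of the kinase BRAF. Cells were harvested 24 h after seeding and crosslinked with 1% formaldehyde for 10 min. In miR-CATCHv2.0, probes were then used to pull down the X1 isoform of the BRAF mRNA through its 3′ UTR. The microRNAs in the pulled-down RNA were sequenced, and whether miR-21 was bound to this mRNA was not tested. The groups were 3 ODD and 3 EVEN captures, named for their probe sets and together called X1 probes here, and 1 control capture with scrambled probes. All captures came from this line and carried no other treatment in the labels, and no library of unselected RNA was analysed here, so a level below is a level in pulled-down RNA and not in the cell.

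A microRNA guides an Argonaute protein to messenger RNAs that pair with its seed, bases 2 to 8, and lowers their stability or translation. miR-21-5p is among the microRNAs most often raised in tumours. Its known targets include PDCD4, which restrains translation and tumour growth, and Sprouty proteins, which restrain the RAS and MAPK pathway in which BRAF acts. Transcription of miR-21 is in turn driven by AP-1 and STAT3. The 3′ arm is the passenger strand of the duplex, and most of it is degraded when the guide strand is loaded.

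The mature sequence is shown because the seed decides which messages the microRNA can pair with. The capitals mark the seed, and the sequences are from RefSeq on GRCh38.p14.
miR-21-5p: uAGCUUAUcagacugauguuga
miR-590-5p: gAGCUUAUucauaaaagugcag
miR-21-5p lies at chr17:59841273-59841294 on the plus strand, bases 8 to 29 of a hairpin of 72 bases. The hairpin lies within the span of VMP1, a gene for an autophagy protein, and starts 989 bases before its end. Of the 480 names, 406 had a mature sequence in this table, and miR-21-5p was the 1 among them with the seed AGCUUAU. miR-590-5p, the other RefSeq microRNA found with this seed, is not among the names analysed here. Among names with a sequence, the values below for this seed are therefore those of miR-21-5p. The seeds of the remaining names were not checked.

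miR-21-5p was an abundant microRNA of every capture. Levels are RPM, reads scaled to a total of 1000000 per library, and they are not divided by length because a read spans the whole of so short an RNA. It had 21161, 24502 and 27661 RPM in ODD replicates 1 to 3, from 229, 870 and 112 reads. It had 29488, 20149 and 20768 RPM in EVEN replicates 1 to 3, from 274, 292 and 99 reads. The scrambled library had 18937 RPM from 88 reads. The highest value was that of EVEN replicate 1 and the lowest that of the scrambled library, a span of 1.56-fold over the 7 libraries. The ODD and EVEN values overlapped, and the scrambled value lay below all 6 of them.

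miR-21-3p was lower in every library. It had 2680, 3098 and 4199 RPM in ODD replicates 1 to 3, from 29, 110 and 17 reads. It had 3336, 3657 and 2308 RPM in EVEN replicates 1 to 3, from 31, 53 and 11 reads. The scrambled library had 4304 RPM from 20 reads. Here the scrambled library was the highest of the 7, the opposite of its place for the 5′ arm, and ODD replicate 3 was close to it. The ODD and EVEN values again overlapped.

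**Figure D1:**
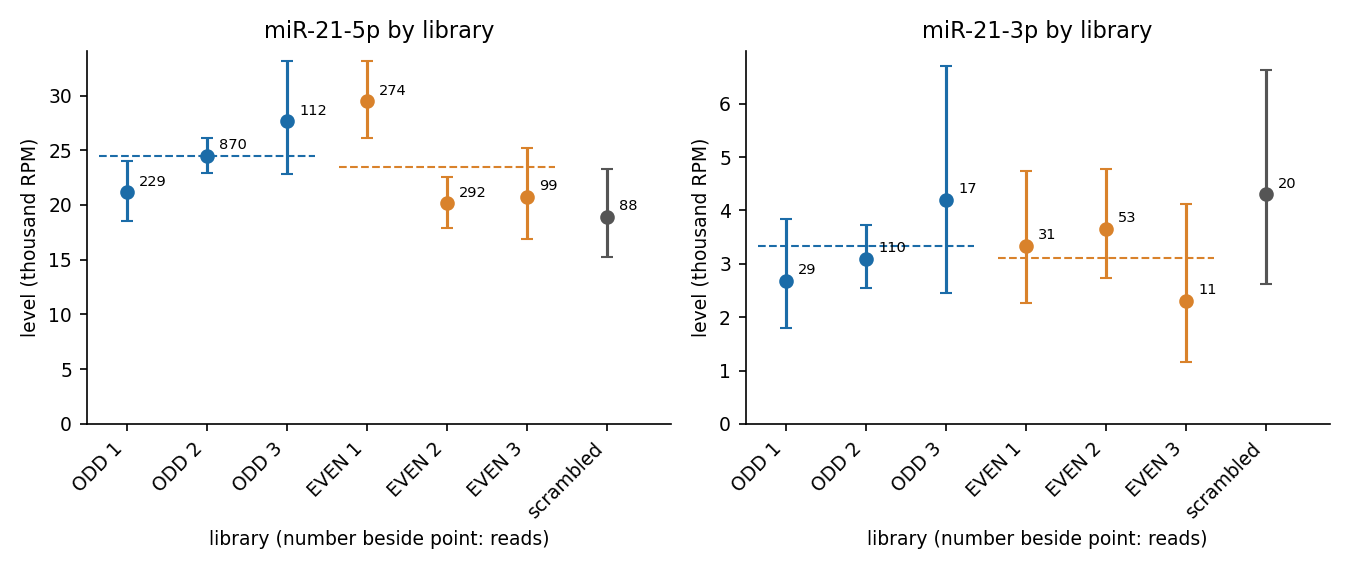
Level of miR-21-5p (left) and miR-21-3p (right), in RPM divided by 1000, in each of the 7 libraries, with exact Clopper-Pearson 95% intervals on reads as bars, the number of reads beside each point and the ODD and EVEN means as dashed lines. The scrambled point is the lowest for the 5′ arm at 18937 RPM and the highest for the 3′ arm at 4304 RPM, and its interval overlaps all others except that of EVEN replicate 1 for the 5′ arm.

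The spread of miR-21-5p between captures was wider than the counting of reads alone gives. Its level was 24441 ± 3251 RPM with ODD probes (SD, n = 3), while counting reads would give an SD of 1777 RPM. With EVEN probes it was 23468 ± 5222 RPM (SD, n = 3) against a counting SD of 1724 RPM, so the EVEN spread was 3.03 times the counting error. EVEN replicate 1 stood apart from the other EVEN libraries: its exact 95% interval of 26142 to 33132 RPM did not overlap that of EVEN replicate 2, at 17924 to 22570 RPM. For miR-21-3p the spread was close to counting error. The ODD captures had 3325 ± 785 RPM and the EVEN captures 3100 ± 705 RPM (SD, n = 3 each), against counting SDs of 676 and 604 RPM. Counting intervals and SDs leave out every other error, such as that between captures. Reads can also be copies of a single molecule, and copies could not be told apart here.

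In the order of mean RPM miR-21-5p was number 7 of 480 and miR-21-3p number 39. The rank of miR-21-5p was 7, 7 and 6 in ODD replicates 1 to 3, 4, 10 and 10 in the EVEN replicates, and 11 with scrambled probes. Its nearest neighbours in the order were miR-423-5p above, at 26402 ± 5171 RPM, and miR-100-5p and miR-27b-3p below, at 23171 ± 3357 and 21361 ± 1382 RPM (SD, n = 7 each). miR-21-5p had 23238 ± 4055 RPM on this basis (SD, n = 7). It exceeded miR-423-5p in 3 of 7 libraries, and miR-100-5p and miR-27b-3p in 4 of 7 each, so these 4 neighbours did not differ beyond their spread. The next above, miR-191-5p and miR-181a-5p, had 33551 ± 6587 and 34235 ± 7144 RPM (SD, n = 7 each), and miR-21-5p exceeded each in 1 of 7 libraries. miR-222-3p, a microRNA known for its part in melanoma growth, had 18036 ± 4804 RPM (SD, n = 7) and was below miR-21-5p in 5 of 7 libraries. miR-92a-3p, let-7a-5p and miR-92b-3p were above miR-21-5p in all 7.

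**Figure D2:**
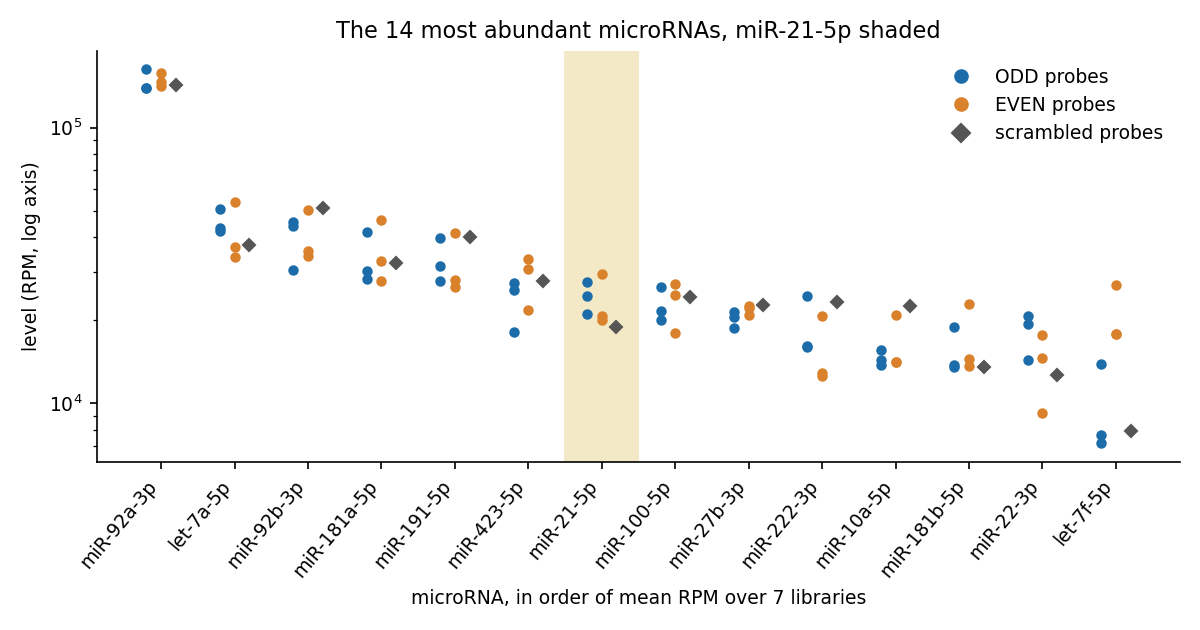
Level in RPM, on a log axis, of the 14 most abundant microRNAs in each ODD (blue), EVEN (orange) and scrambled (grey diamond) library, in order of mean RPM. miR-21-5p, shaded, lies in a group of neighbours from miR-423-5p to miR-27b-3p whose points overlap, well under miR-92a-3p at 147167 RPM on average.

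The first comparison asks whether miR-21 was a larger share of the captured microRNA reads with X1 probes than with scrambled probes. RPM does not give the amount of RNA pulled down, so whether more miR-21 came down in all was not tested. miR-21-5p averaged 23955 ± 3927 RPM over the X1-probe captures (SD, n = 6) against 18937 RPM in the scrambled library, and it was higher in 6 of 6 X1-probe libraries. The difference did not pass: on the log2(RPM + 10) scale it was 0.32 (limma, SE 0.30, 95% interval -0.29 to 0.93, adjusted p = 0.673 over 242 microRNAs). The interval runs from 0.821-fold to 1.91-fold. The exact two-sided permutation p on RPM was 0.429, and the smallest that 6 libraries against 1 allow is 0.143. The scrambled group has 1 library, so limma assumed for it the spread of the other groups.

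All 6 libraries on the same side is not unusual here. Of the 242 microRNAs tested, 11.2% had all 6 X1-probe libraries above the scrambled one and 22.7% had all 6 below it. Among the 68 that averaged at least 1000 RPM, as both arms do, these shares were 13.2% and 26.5%. By limma 0.826% passed as higher, 2 microRNAs, and 0 passed as lower. At an unadjusted p under 0.05, before the correction, 17 were higher and 4 lower by limma. Neither arm of miR-21 was among them. For miR-21-5p, 104 of the 242 had a larger positive difference, and the median over all 242 was 0.096.

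miR-21-3p went the other way without passing. Its X1-probe mean was 3213 ± 678 RPM (SD, n = 6), against 4304 RPM with scrambled probes, and it was lower in 6 of 6 libraries. On the log2 scale the difference came to -0.45 (95% interval -1.31 to 0.41, SE 0.42, adjusted p = 0.673 by limma). The exact 95% interval of the scrambled value, 2631 to 6639 RPM on 20 reads, holds 5 of the 6 X1-probe values. The exact two-sided permutation p was 0.286.

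ODD and EVEN captures were then compared with the scrambled library separately, so these comparisons share that library. The log2 difference of miR-21-5p was 0.36 with ODD probes (limma, 95% interval -0.29 to 1.01, adjusted p = 0.729) and 0.29 with EVEN probes (limma, 95% interval -0.36 to 0.94, adjusted p = 0.699). Without EVEN replicate 1 the EVEN difference was 0.11 (limma, adjusted p = 0.884). For miR-21-3p the ODD and EVEN differences were -0.40 and -0.50 (adjusted p = 0.729 and 0.667 by limma). With either set, 0.826% of the microRNAs passed.

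The libraries also carry a number in their descriptions, 9, 10 or 12, whose meaning the labels do not give. The scrambled library shares the number 12 with replicate 3 of both probe sets. Within that number, miR-21-5p was 1.46 times the scrambled value in the ODD library and 1.10 times in the EVEN library. miR-21-3p was 0.976 times the scrambled value in the ODD library and 0.536 times in the EVEN library. The ODD ratio was farther from 1 for the 5′ arm and the EVEN ratio for the 3′ arm. These ratios rest on 11 to 112 reads, and 3 libraries give no test.

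RPM is a share of a total, so miR-21-5p was also read against other microRNAs of the same library. Against let-7a-5p it stood at 48.9%, 48.3% and 65.5% in ODD replicates 1 to 3 and at 54.7%, 54.6% and 61.1% in EVEN replicates 1 to 3. The scrambled library, at 50.3%, lay within that range. Against miR-92a-3p the X1-probe libraries stood at 16.3% ± 3.31 (SD, n = 6) and the scrambled library at 13.3%, above the lowest X1-probe values of 13.0% and 13.1%. The scrambled library was thus the lowest for miR-21-5p in RPM and not by the ratios to let-7a-5p and miR-92a-3p. This depends on the reference. miR-92b-3p and miR-27b-3p were each highest in the scrambled library, at 51216 and 22810 RPM. Against each of them miR-21-5p was therefore lowest in the scrambled library. Other microRNAs were not compared in this way.

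The second comparison asks whether miR-21 had a like share of the reads with both probe sets, which target the same mRNA. miR-21-5p differed by 0.072 on the log2 scale between ODD and EVEN probes (limma, SE 0.23, 95% interval -0.39 to 0.53, adjusted p = 0.981). The interval runs from 0.764-fold to 1.45-fold. miR-21-3p differed by 0.10 (limma, SE 0.32, 95% interval -0.55 to 0.75, adjusted p = 0.981). The exact two-sided permutation p was 0.8 for each arm, where 3 against 3 cannot go below 0.1. Neither arm had ODD and EVEN libraries that did not overlap, which 7.02% of the 242 microRNAs had, and 0.413% passed by limma, 1 microRNA. The sign of both differences turned when single libraries were left out: for miR-21-5p the log2 difference ran from -0.027 without EVEN replicate 2 to 0.25 without EVEN replicate 1.

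By description number the ODD over EVEN ratio of miR-21-5p had no common direction. It was 0.718 for number 9, 1.22 for number 10 and 1.33 for number 12. For miR-21-3p it was 0.803, 0.847 and 1.82.

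The balance of the arms was read from the reads of both. miR-21-3p gave 11.2% of the miR-21 reads in ODD replicate 1, 11.2% in ODD replicate 2 and 13.2% in ODD replicate 3. In EVEN replicates 1 to 3 it gave 10.2%, 15.4% and 10.0%. In the scrambled library it gave 18.5%, 20 of 108 reads, the largest share of the 7. The exact Clopper-Pearson 95% interval of the scrambled share was 11.7% to 27.1%, and that of the pooled X1-probe reads, 251 of 2127, was 10.5% to 13.2%. Tests of this difference were added after the values were seen. Fisher's exact test on these reads gave p = 0.0479 (two-sided, odds ratio 1.70), which compares read counts of 1 library and 6 pooled libraries and takes reads as independent. Over libraries, the exact two-sided permutation p on the log2 arm ratio was 0.143, the smallest that 6 against 1 allow, so the difference could not pass there. As a ratio, the 5′ arm outnumbered the 3′ arm 7.62 ± 1.35 times with X1 probes (SD, n = 6) and 4.40 times with scrambled probes. ODD and EVEN probes did not differ beyond their spread, at 11.9% ± 1.12 and 11.8% ± 3.05 of 3′ arm reads (SD, n = 3 each).

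miR-21-3p is one of the better counted minor arms. Of 87 hairpins listed with both arms, 9 had reads of both in all 7 libraries, and miR-21 was number 4 of the 87 by minor-arm reads, with 271 in all. Among those 9 hairpins the minor arm gave from 0.395% (mir-92a-1) to 48.9% (mir-151a) of the reads, with a median of 10.7%. mir-21, at 12.1%, was number 3 after mir-151a and mir-125b-1, with mir-423 next at 12.1%. The scrambled library had a higher minor-arm share than all 6 X1-probe libraries for 3 of the 9, or 33.3%: mir-21, mir-100 and mir-125b-1. For mir-100 the minor arm rests on 24 reads in all. The minor arm of mir-125b-1, miR-125b-5p, is listed with mir-125b-1 (480 reads) and also with mir-125b-2 (475 reads). Its share is thus not the arm balance of a single hairpin. The same may hold for mir-92a-1, which sets the low end of 0.395%. Its minor arm, miR-92a-1-5p, is named for this hairpin and had 48 reads in all. Its major arm, miR-92a-3p, is not named for this hairpin. No hairpin of the 9 had its scrambled share below all 6. The log2 ratio of the major to the minor arm was higher with X1 probes by 0.77 for mir-21. The 9 hairpins ran from -1.17 (mir-92a-1) to 1.77 (mir-100), with a median of 0.47.

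**Figure D3:**
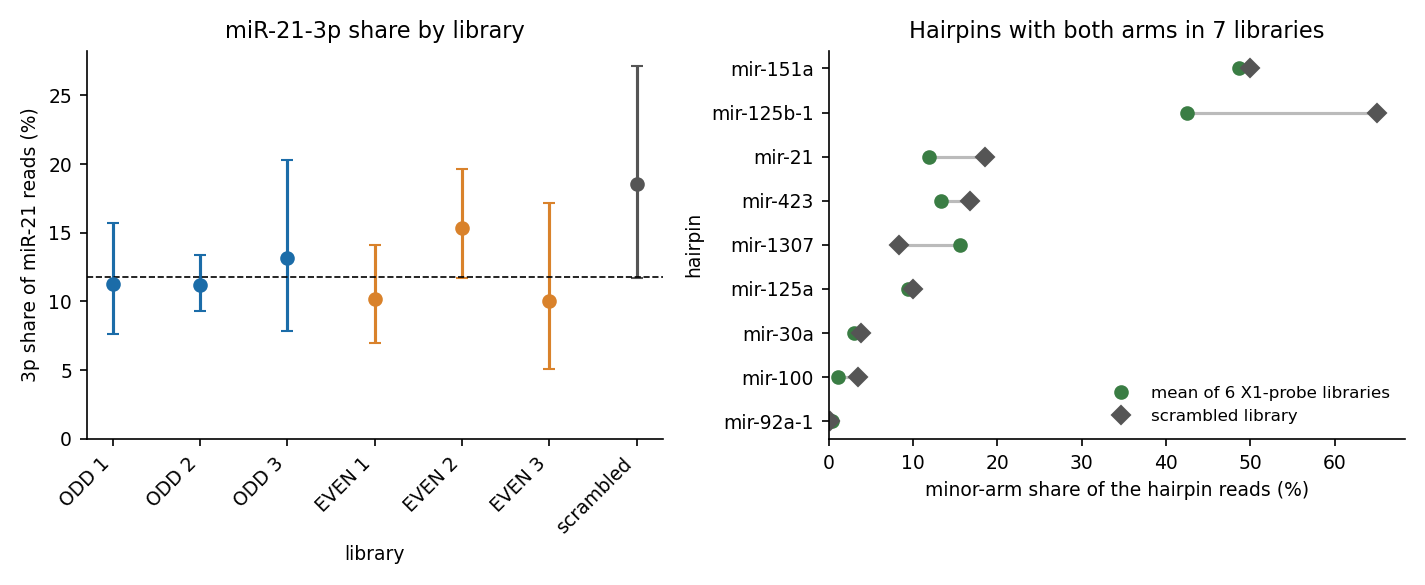
Left, the share of miR-21 reads from the 3′ arm in each library in percent, with exact Clopper-Pearson 95% intervals and the pooled X1-probe share of 11.8% as a dashed line. Right, the minor-arm share in percent for the 9 hairpins with reads of both arms in all 7 libraries, as the mean of the 6 X1-probe libraries (green) and in the scrambled library (grey diamond). The scrambled point is the highest for miR-21 at 18.5%, with an interval that reaches down to 11.7%.

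The levels of the arms of miR-21 showed no clear relation across libraries. On the log2(RPM + 10) scale their Pearson r was 0.14 (exact permutation p = 0.775, n = 7) and Spearman's rho -0.18 (exact permutation p = 0.713, n = 7) for this pair. Without ODD replicate 3 and EVEN replicate 1, the libraries farthest from the median of the 5′ arm, r was -0.41 over 5. In the 6 X1-probe libraries r was 0.53.

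The microRNAs whose pattern was most like that of miR-21-5p were taken by Pearson r over the 7 libraries among the 67 others that averaged at least 1000 RPM. miR-26a-5p led with r = 0.82, then came let-7a-5p with 0.77 and miR-31-5p with 0.74, followed by miR-23a-3p and miR-30d-5p with 0.71 and 0.65. miR-21-3p came at place 20 of 67. miR-26a-5p shared the high value of EVEN replicate 1, at 11192 RPM, and the low one of the scrambled library, at 5380 RPM, the ends of its range. miR-31-5p was also lowest in the scrambled library, at 1076 RPM, and highest in ODD replicate 3, at 3952 RPM. For miR-21-3p the most like was miR-10b-5p (r = 0.93 over 7 libraries, 0.95 over the 6 with X1 probes), which was also highest in the scrambled library, at 14203 RPM. These values share libraries and totals and describe 7 points. The sequences of the 3 most like miR-21-5p are shown because none shares its seed.
miR-26a-5p: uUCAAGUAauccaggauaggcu
let-7a-5p: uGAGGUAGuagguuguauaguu
miR-31-5p: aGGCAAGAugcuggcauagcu

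miR-21-5p was set beside a list of 23 other oncogenic microRNAs and a list of 24 tumour suppressor microRNAs. Of the oncogenic list 22 had a row and 17 were tested against scrambled. By limma 1 of them, miR-17-5p, a microRNA of a polycistron amplified in lymphomas, rose and 0 fell, against 0.826% of all tested. That call sets 50 reads over the 6 X1-probe libraries, 786 ± 393 RPM (SD, n = 6), against 0 reads in the scrambled library, where 1 read is worth 215 RPM. The median log2 difference was -0.025 for this list and 0.096 over the 242. Of its members that averaged at least 1000 RPM, 10 in all, miR-92a-3p exceeded miR-21-5p in all 7 libraries. miR-222-3p exceeded it in the scrambled library and tied with it in EVEN replicate 3, and the remaining 8, from miR-24-3p at 1029 to miR-10b-5p at 11427 RPM, were below it in all 7. Of the tumour suppressor list 21 had a row, 17 were tested and 0 passed against scrambled, with a median of 0.19. Above 0 lay 11 of its 17 tested members and 8 of 17 in the oncogenic list, where 127 of all 242 microRNAs lay above 0.

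The melanoma label was set beside marker microRNAs. Of 8 listed as melanocytic and melanoma, 3 had a row. miR-204-5p and miR-146a-5p of that list had reads in all 7 libraries, at 2082 and 5033 RPM on average. miR-509-3p had 6 reads in 4 of 7, at 91.9 RPM on average. miR-211-5p, miR-506-3p, miR-508-3p, miR-513a-5p and miR-514a-3p had no row. Summed over their lists, epithelial, blood, muscle, neuronal, endothelial, fibroblast and liver markers each stayed at or under 988 RPM in the X1-probe libraries. The neuronal sum was 1291 RPM in the scrambled library, all of it miR-9-5p. Beside the 18937 RPM or more of miR-21-5p these are small, but their part in its level was not tested. Depth was 4049 to 35508 reads per library over all rows, and the scrambled library, ODD replicate 3 and EVEN replicate 3 were the shallowest. The miR-21-5p values of EVEN replicate 3 and the scrambled library differed by less than the counting SD of either.

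Neither comparison changed its outcome under other processing, though the width of the intervals did change. Over 17 other settings the log2 difference of miR-21-5p between X1 and scrambled probes stayed between 0.24 and 0.45, with adjusted p from 0.638 to 0.992 by limma. That of miR-21-3p stayed between -0.54 and -0.27, with adjusted p from 0.646 to 0.992 by limma.

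**Figure D4:**
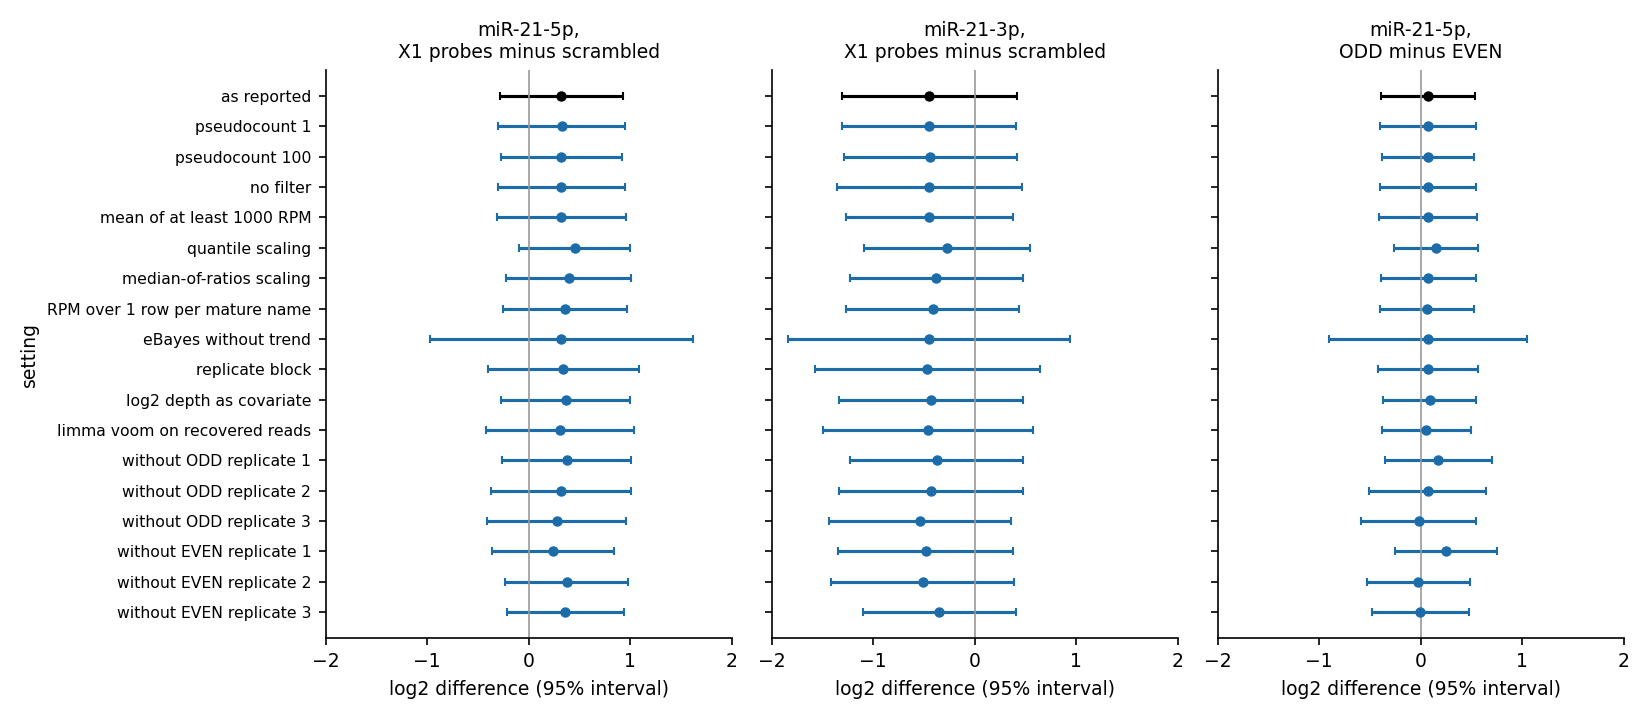
Log2 difference with its 95% interval for miR-21-5p and miR-21-3p between X1 and scrambled probes and for miR-21-5p between ODD and EVEN probes, as reported (black) and under 17 other settings (blue). Every interval holds 0, and the point estimates against scrambled keep their sign while those of ODD minus EVEN lie on both sides of 0.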

How the data were processed

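The authors deposited 1 table of RPM for 498 hairpin and mature microRNA pairs in 7 libraries, with decimal commas. CASAVA 1.8 and cutadapt 1.2.1 are named, per the submitters' processing notes. The aligner, counting rule, annotation and build were not given in the sources used here. Each column summed to 1000000, and 100% of values were whole multiples of 1 read at a tolerance of 1e-06 reads, which gave reads and depth. Where a name had several hairpin rows (17 names), the row with the highest mean RPM stood for it. Each arm of miR-21 has 1 row.

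The test was limma 3.58.1 (R 4.3.3) with 1 mean per group, fitted to log2(RPM + 10). It used trended eBayes and a Benjamini-Hochberg threshold of 0.05 over 242 microRNAs of at least 10 RPM in at least 3 libraries. The fit was also run on simulated reads. The outcome of that run is not given here, so nothing is drawn from it for either arm of miR-21. Permutation tests and Clopper-Pearson intervals used scipy 1.17.1. The limma and permutation p-values refer to the spread between captures of 1 cell line. In limma part of that spread is taken from the other microRNAs, and the scrambled group has none of its own. P-values of Fisher's test and of the chi-square tests measure the counting of reads. Every pair of libraries differed by chi-square at an unadjusted p under 0.05, so all were kept as separate samples. The largest chi-square p, 0.030 over 64 names, was that of EVEN replicate 3 against scrambled. The next largest was 1.01e-06, for ODD replicate 3 against scrambled.

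Besides both arms, the text names the 3 neighbours on each side by mean RPM, the 5 most correlated microRNAs and those with the same seed. Of the list members of at least 1000 RPM it names only some. miR-17-5p, miR-92b-3p, the hairpins named for their arms, the marker microRNAs and the microRNAs most like miR-21-3p were named after values were seen. Members, lists and tests were chosen with earlier results of these data known.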

Additional observations from a re-analysis of the deposited data

How the results depend on the processing

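The differences from scrambled probes kept their sign and did not pass in any of the 17 other settings, for either arm. Leaving out each replicate in turn gave log2 differences of 0.24 to 0.37 for miR-21-5p and -0.54 to -0.35 for miR-21-3p between X1 and scrambled probes. For miR-21-5p it gave 0.27 to 0.46 for ODD and 0.11 to 0.39 for EVEN probes against scrambled, the lowest without EVEN replicate 1. For ODD minus EVEN the same gave -0.027 to 0.25 for miR-21-5p and -0.096 to 0.24 for miR-21-3p, so the sign turned in 3 and 2 of 6 cases. The ODD minus EVEN difference of miR-21-3p also turned under quantile scaling (-0.057) and with limma voom on the recovered reads (-0.040), the latter chosen after seeing the data; the cause was not tested. Same-numbered ODD and EVEN libraries showed little joint deviation (r = -0.044, 0.072 and 0.019 over 242 microRNAs). Counting error in microRNAs of few reads can hide a joint deviation, so r cannot tell whether the numbers mark pairs. They were not taken as pairs in the main fit. With the replicate number as a block, and scrambled in the block of replicate 3, no call changed: the log2 difference of miR-21-5p was 0.34 between X1 and scrambled probes (limma, adjusted p = 0.677) and 0.072 between ODD and EVEN probes (limma, adjusted p = 0.937). Counting 1 row per mature name moved the mean share of miR-21-5p with X1 probes from 2.40% to 3.28% of reads, and counting all hairpin rows moved its median rank there from 7 to 10. The planned edgeR fit on recovered reads was not run. Depth limits the 3′ arm most, with 11 to 31 reads in 5 libraries.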
